A study of Drosophila melanogaster with 16 samples.

Results

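ZAM and Idefix are LTR retrotransposons of Drosophila melanogaster that carry an env gene beside gag and pol, like retroviruses. They were taken by name from tables of transposon families, and both rows were present in all 3 tables, which list 119 families for RNA-seq, 122 for GRO-seq and 125 for ChIP-seq, so that they are 2 of 125 families in all. The ovaries came from flies kept at 25 degrees and aged 3 to 5 days, in which either piwi or, as the control, the pigment gene white was knocked down. The knockdown was driven by tj-GAL4, whose activity is somatic, or by nos-GAL4, whose activity is in germline cells, so that all 4 conditions carried a GAL4 driver and a knockdown. Whole ovaries were used, and cells in which a driver is silent therefore contributed to every value. RNA-seq read the steady-state RNA, GRO-seq the nascent RNA that engaged polymerases extend in isolated nuclei, and ChIP-seq the histone mark H3K9me3, typical of silenced chromatin, beside an input library of the same chromatin.

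Each condition had 1 sample of each kind, and there were 16 samples. Although 2 RNA-seq replicates are stated, the table has 1 column per condition and strand. No difference below has a replicate check, and no test over samples could be made. Read numbers of the ChIP-seq transposon table were inferred from its deposited values. For each of the 8 libraries the smallest total, in multiples of 1000, that made every value a whole number of reads was taken. These totals were 2514000 to 3047000 reads, and intervals from the read numbers cover counting error only. Levels of piwi, of white and of markers of ovarian cell types were not analysed here, so neither the knockdowns nor the tissue was checked.

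Piwi is a nuclear Argonaute protein that is guided to transposon transcripts by small RNAs called piRNAs and directs silencing of the matching copies. In the somatic follicle cells that surround the germline, many piRNAs come from flamenco, a long locus filled with transposon fragments lying mostly in antisense orientation. ZAM and Idefix are known as targets of flamenco. In lines where that control fails, ZAM is transcribed in follicle cells and Idefix in somatic cells of the germarium, and both are studied as elements that may pass from somatic cells to the oocyte.

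Sense RNA of ZAM, the strand that encodes its proteins, was far higher in piwi knockdown under the tj driver and close to the control under the nos driver. In RNA-seq it measured 94.5 RPM (reads-per-million) in tj white, 5192 RPM in tj piwi, 108 RPM in nos white and 139 RPM in nos piwi knockdown. The tj piwi sample alone stood apart, and the other 3 lay within 94.5 to 139 RPM. Changes are given as ratios of RPM + 1, piwi over white knockdown. The ratio for ZAM was 54.4 under tj, the 4th highest of the 113 elements whose mean reached 1 RPM, and 1.28 under nos, the 85th. The median element was itself 1.61-fold higher under tj and 2.14-fold under nos, so that ZAM lay below the median element under nos, by 0.74 on the log2 scale. In a bulk sample, more cells that hold an RNA and more RNA per cell cannot be told apart.

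Sense RNA of Idefix was higher in piwi knockdown under both drivers. It measured 9.61 RPM in tj white and 46.5 RPM in tj piwi, and 9.75 RPM in nos white and 64.9 RPM in nos piwi knockdown. Both piwi samples lay above both controls, and the controls were nearly equal. The ratios were 4.48 under tj and 6.13 under nos, the 20th and the 30th highest of 113. Both elements were thus at least 2-fold higher under tj, where 38.9% of the 113 elements were, and Idefix alone of the pair was under nos, where 52.2% were. After centring on the median element the same pair of calls under tj and the call of Idefix under nos stood, while the number of elements past that size went from 44 to 24 under tj and from 59 to 38 under nos. Under both drivers 25.7% of elements passed that size, as Idefix did, and 13.3% passed it under tj without passing it under nos, as ZAM did.

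**Figure D1:**
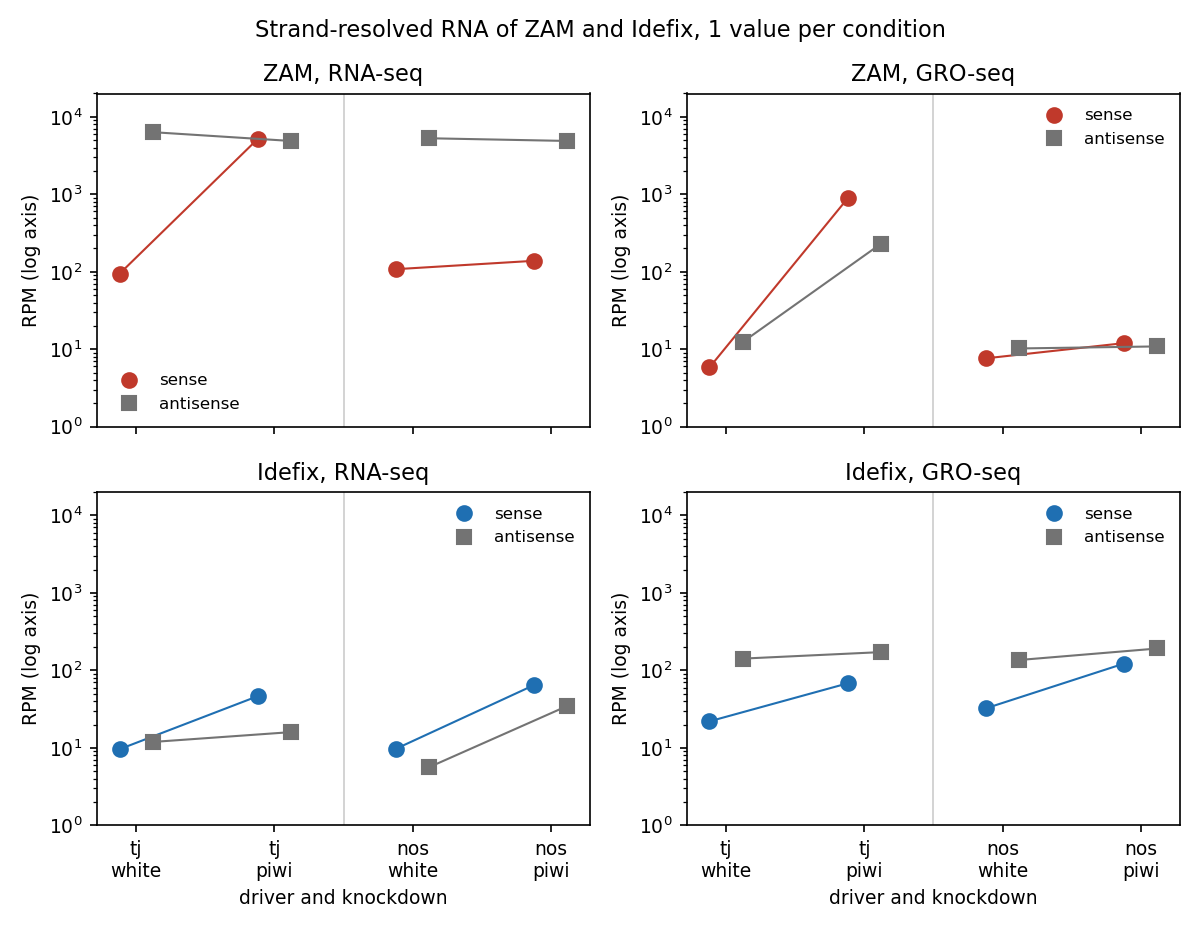
Sense (circles) and antisense (grey squares) RPM of ZAM and Idefix on a log axis, by driver and knockdown, in RNA-seq and GRO-seq; each point is 1 deposited value and lines join the knockdowns of a driver. Sense RNA of ZAM goes from 94.5 to 5192 RPM under tj, while its antisense RNA stays between 4878 and 6337 RPM in all 4 conditions.

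Antisense RNA of the pair looked quite different. For ZAM, antisense RNA was abundant in every RNA-seq column, at 6337 RPM in tj white, 4878 RPM in tj piwi, 5287 RPM in nos white and 4881 RPM in nos piwi knockdown. The piwi values lay below their controls, at ratios of 0.770 under tj and 0.923 under nos, where the median elements were at 1.27 and 1.90. Antisense reads were 98.5% of the RNA-seq reads of ZAM in tj white, 98.0% in nos white and 97.2% in nos piwi knockdown, and 48.4% in tj piwi knockdown. Over the summed reads of all elements, ZAM included, antisense shares were 73.0% in tj white and 87.2% in nos white. They were 66.4% in tj piwi and 59.0% in nos piwi knockdown. The median element had antisense shares of 32.7% to 42.7% over the 4 conditions. ZAM ranked 6th of 114 in tj white and 5th of 112 in nos white, among elements with at least 1 RPM on both strands together. Because antisense reads made up nearly all of the control signal, the sum of both strands of ZAM was only 1.57-fold higher under tj, at 10070 against 6431 RPM, and was 5019 against 5395 RPM under nos.

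Idefix had little antisense RNA in RNA-seq, at 11.9 RPM in tj white, 16.0 RPM in tj piwi, 5.64 RPM in nos white and 34.8 RPM in nos piwi knockdown. The nos piwi sample was the highest of the 4. Its ratio was 5.40 under nos, the 17th highest of 109 elements, and 1.31 under tj, the 51st. At least 2-fold more antisense RNA was present for 48.6% of elements under nos and for 17.4% under tj. Antisense reads were 55.4% of those of Idefix in tj white and 25.6% in tj piwi, against 36.7% in nos white and 34.9% in nos piwi knockdown, so that sense and antisense RNA were higher in nearly equal measure under nos and mainly sense RNA was higher under tj.

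Nascent RNA was measured to ask whether transcription differed. Nascent sense RNA of ZAM was 5.82 RPM in tj white, 888 RPM in tj piwi, 7.63 RPM in nos white and 11.99 RPM in nos piwi knockdown. As in RNA-seq, the tj piwi sample stood alone. Its ratio of 130 was the highest of the 122 elements under tj, where 21.3% of elements were at least 2-fold higher and the median element was at 1.31, and the ratio under nos was 1.51, beside a median of 1.43. Nascent sense reads of ZAM were 0.0509% of all sense reads of the table in tj white and 4.55% in tj piwi knockdown.

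Nascent antisense RNA of ZAM was 12.4 RPM in tj white and 230 RPM in tj piwi knockdown, a ratio of 17.2 and also the highest of 122, where 13.9% of elements were at least 2-fold higher. Under nos it was 10.2 RPM in white and 10.9 RPM in piwi knockdown, a ratio of 1.06, where 14.8% were at least 2-fold higher. In GRO-seq both strands of ZAM were thus higher under tj, whereas in RNA-seq its antisense strand was not. The antisense share of its nascent reads was 68.0% in tj white and 20.5% in tj piwi, and 57.3% in nos white and 47.6% in nos piwi knockdown.

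Nascent sense RNA of Idefix was 22.0 RPM in tj white and 68.1 RPM in tj piwi, and 32.4 RPM in nos white and 123 RPM in nos piwi knockdown. Both piwi values again lay above both controls. The ratios were 3.00 under tj, the 14th highest of 122, and 3.70 under nos, the 24th, where 34.4% of elements were at least 2-fold higher. Of the 122 elements 10.7% passed that size under both drivers. Nascent antisense RNA of Idefix exceeded its sense RNA in every sample, with 142 RPM in tj white, 172 RPM in tj piwi, 136 RPM in nos white and 192 RPM in nos piwi knockdown. Its ratios were 1.21 under tj, below the median element at 1.27, and 1.41 under nos, above the median element at 1.09. The antisense share of nascent Idefix reads was therefore 86.6% in tj white, the 8th highest of 122, and 71.7% in tj piwi, and 80.8% in nos white and 61.0% in nos piwi knockdown.

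The drivers were then set against each other, without a test of the difference. For ZAM the log2 ratio under tj exceeded that under nos by 5.41 in RNA-seq and by 6.44 in GRO-seq, the 2nd largest excess of 113 elements and the largest of 122. For Idefix the same difference was -0.45 in RNA-seq and -0.30 in GRO-seq, beside -0.27 and -0.03 for the median element. After each driver was centred on its median element, the difference for Idefix was -0.04 and -0.17. Between the 2 white knockdowns, the ratio of sense RNA in tj over nos was 0.876 for ZAM and 0.988 for Idefix in RNA-seq. In GRO-seq it was 0.790 for ZAM, the 93rd of 122 elements, and 0.689 for Idefix, the 108th, where the median log2 ratio was 0.008, so that nascent Idefix started from a lower level in the tj control. Antisense RNA of Idefix in RNA-seq was 1.95-fold higher in tj white than in nos white knockdown.

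**Figure D2:**
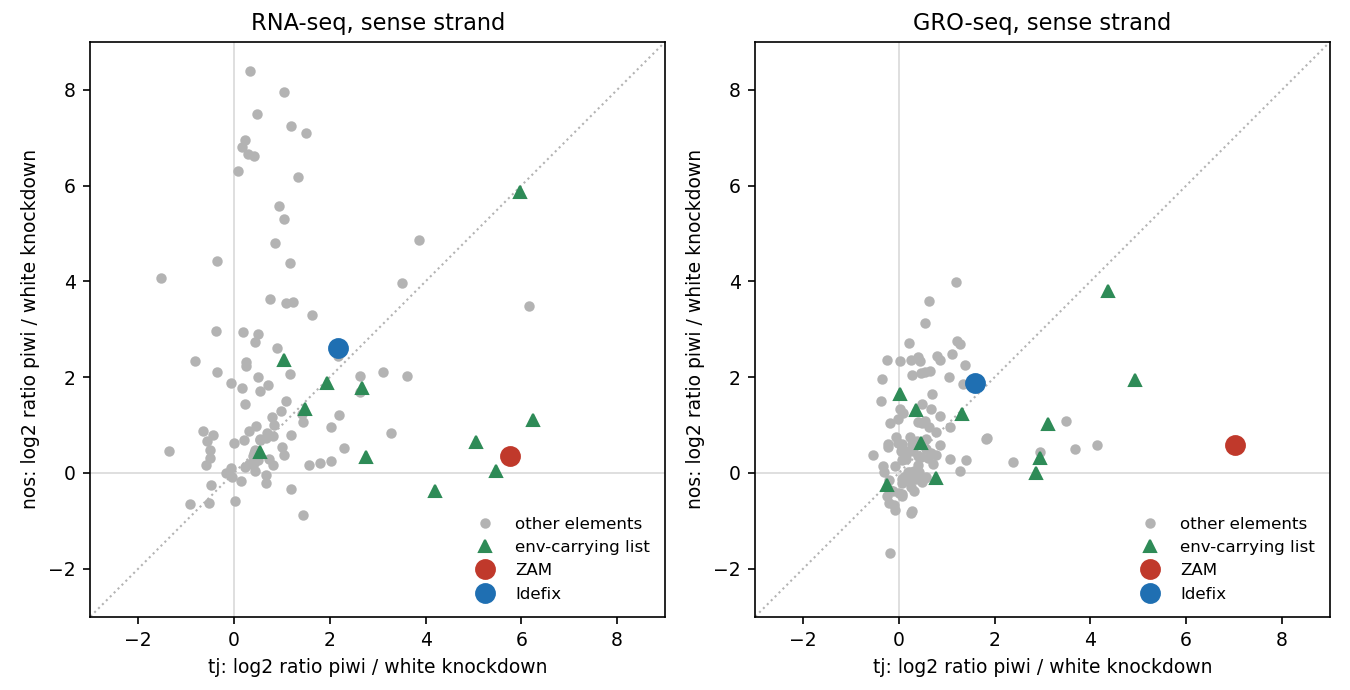
Log2 ratio of sense RNA, piwi over white knockdown, under nos (vertical) against tj (horizontal) for all elements that passed the level filter, in RNA-seq and GRO-seq; green triangles are the 11 other env-carrying elements and the dotted line marks equal ratios. ZAM lies far to the right at 5.77 and 0.36 in RNA-seq and 7.03 and 0.59 in GRO-seq, while Idefix lies near the dotted line at 2.16 and 2.62, and 1.59 and 1.89.

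A list of 11 other gypsy-group elements described as carrying env, among them gypsy, gypsy5, gypsy6, gtwin, Tirant, Quasimodo, opus, rover and springer, was set beside the pair. Under tj 10 of the 11 had at least 2-fold more sense RNA, as had 38.9% of all elements, with a median log2 ratio of 2.75 beside 0.69 for all elements, from opus at 0.53 to gypsy6 at 6.24. In that contrast 2 of the 11 lay above ZAM and 7 above Idefix. Under nos 6 of the 11 passed that size, a share near the 52.2% of all elements, with a median of 1.098, equal to that of all elements, from gypsy at -0.38 to Tirant at 5.87, and 8 lay above ZAM and 1, Tirant, above Idefix. In GRO-seq 6 of the 11 passed under each driver, beside 21.3% of all elements under tj and 34.4% under nos. The medians of the 11 were 1.32 under tj, beside 0.38 for all elements, and 1.03 under nos, beside 0.52, and 0 lay above ZAM under tj and 7 under nos. The 5 telomeric elements HeT-A, TAHRE, TART-A, TART-B and TART-C, which serve to maintain chromosome ends in the germline, had log2 ratios in RNA-seq of 0.23 to 1.04 under tj and 6.63 to 8.40 under nos.

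Elements were also ranked by how closely their sense RNA followed that of ZAM or Idefix over the 8 RNA-seq and GRO-seq columns, by the Pearson correlation of log2(RPM + 1) after centring each assay, as a description over 8 values that share their libraries. Of 112 other elements, the closest to ZAM were gypsy (r of 0.96), gypsy5 (0.96) and Tabor (0.94). The closest to Idefix were HMS-Beagle (0.98), BS3 (0.97) and blood (0.95). The correlation between ZAM and Idefix was 0.45, at which Idefix was the 40th closest element to ZAM and ZAM the 81st closest to Idefix. The correlation takes no account of size: BS3 had log2 ratios in RNA-seq of 0.47 under tj and 0.43 under nos, much smaller than those of Idefix, whereas HMS-Beagle had 3.87 and 4.86.

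Steady-state and nascent RNA were next compared for each element within a condition, as the ratio of RNA-seq over GRO-seq RPM, each with 1 added. The assays were scaled apart from each other, so only the position among elements and the order of conditions can be read. Sense RNA of ZAM was 14.0 times its nascent RNA in tj white, 12.6 times in nos white, 10.7 times in nos piwi and 5.84 times in tj piwi knockdown, where the median element had ratios of 0.223 to 0.374. ZAM was among the 6 highest of 119 elements in all 4 conditions. In RNA-seq its sense reads were only 0.0149 times its antisense reads in tj white, 0.0204 times in nos white and 0.0284 times in nos piwi knockdown. How cleanly the strands were separated was not tested, which limits the sense values in these conditions. For antisense RNA the ratios were 474 in tj white, 471 in nos white and 411 in nos piwi knockdown, each the highest of 119, and 21.2 in tj piwi knockdown, the 5th highest. Under tj the RNA-seq change of sense ZAM minus its GRO-seq change was -1.26 on the log2 scale, the 110th of 113 elements, and under nos it was -0.23, the 102nd.

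Idefix lay nearer to the other elements. Its sense ratio of RNA-seq over GRO-seq was 0.461 in tj white, 0.688 in tj piwi, 0.322 in nos white and 0.533 in nos piwi knockdown, at the 33rd to the 48th of 119. Its steady-state change exceeded its nascent change by 0.58 on the log2 scale under tj and by 0.73 under nos, beside 0.28 and 0.73 for the median element. For antisense RNA its ratio was 0.0904 in tj white, 0.0980 in tj piwi, 0.0484 in nos white and 0.186 in nos piwi knockdown, at the 76th to the 110th of 119. The antisense strand of Idefix was therefore the more abundant strand in GRO-seq and, except in tj white knockdown, the less abundant in RNA-seq, whereas antisense RNA of ZAM exceeded its sense RNA in RNA-seq in all conditions but tj piwi knockdown.

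H3K9me3 was measured to ask whether the silent mark differed over the elements. Relative to input, ZAM carried 3.08 times (95% counting interval 2.84 to 3.34) in tj white, 1.95 (1.83 to 2.09) in tj piwi, 3.55 (3.27 to 3.86) in nos white and 2.93 (2.71 to 3.17) in nos piwi knockdown. The tj piwi value was the lowest, and its interval overlapped none of the others. The controls differed from each other beyond counting error, with tj white at 0.867 times nos white (0.772 to 0.974), and the intervals of the tj white and nos piwi samples overlapped. Idefix carried less, at 1.66 (1.60 to 1.73) in tj white, 1.43 (1.38 to 1.49) in tj piwi, 1.58 (1.51 to 1.64) in nos white and 1.54 (1.47 to 1.60) in nos piwi knockdown. The median element had 2.66 to 3.33 in these conditions, so that ZAM lay near the middle in the controls, at the 60th of 114 and the 41st of 116, and Idefix lay low, at the 95th and the 91st. In the controls ZAM had 1.85 times (1.69 to 2.03) the enrichment of Idefix under tj and 2.25 times (2.05 to 2.47) under nos.

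**Figure D3:**
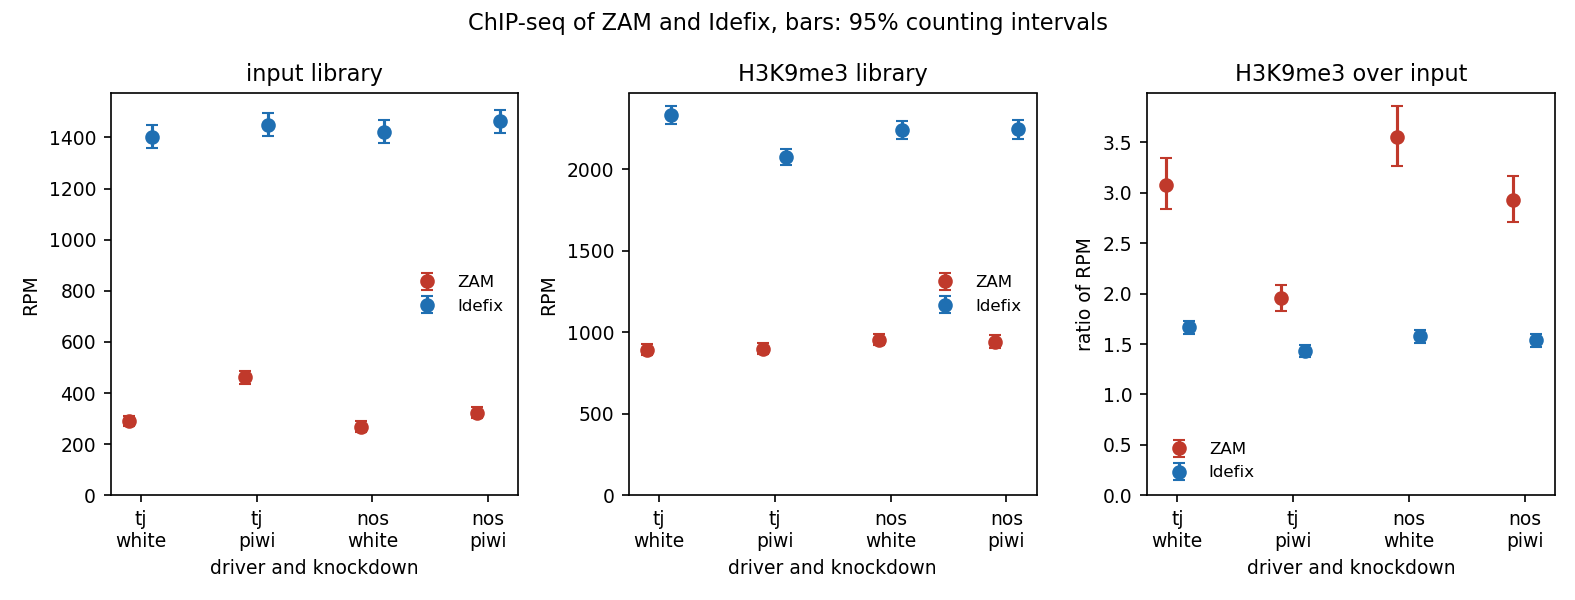
RPM of ZAM (red) and Idefix (blue) in the input and H3K9me3 libraries and their quotient, by driver and knockdown; points are single libraries and bars are 95% counting intervals. Input of ZAM is highest in tj piwi knockdown at 461 RPM, while its H3K9me3 reads lie between 893 and 956 RPM in all 4 conditions.

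The enrichment of ZAM in piwi knockdown was 0.634 times that in white knockdown under tj (0.571 to 0.704), the 3rd lowest of 114 elements with at least 100 reads in all 4 libraries, and 0.825 times (0.736 to 0.925) under nos, the 36th lowest of 115. For Idefix these ratios were 0.860 (0.813 to 0.910) under tj, the 35th lowest, and 0.974 (0.920 to 1.03) under nos, the 87th lowest. Both elements had an interval below 1 under tj, as did 47.4% of the 114 elements, and ZAM had one under nos, as did 60.9% of the 115. The median elements were at 0.909 and 0.888. Relative to them, the ratio under tj was 0.697 (0.628 to 0.775) for ZAM and 0.946 (0.894 to 1.001) for Idefix, and under nos it was 0.930 (0.830 to 1.04) for ZAM and 1.098 (1.04 to 1.16) for Idefix. Of the pair, only ZAM under tj therefore kept an interval below 1 after centring, as did 20 of the 114 elements. That of Idefix under nos lay above 1, as did 26 of the 115. The ratio of ZAM was 0.737 times that of Idefix under tj (0.654 to 0.831) and 0.847 times under nos (0.745 to 0.962). Of the 10 env-carrying elements with enough reads, 0 lay below ZAM under tj and 4 under nos, and the lowest under tj was gypsy5 at 0.637.

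The lower enrichment of ZAM under tj came with more input reads and not with fewer H3K9me3 reads. Input reads of ZAM were 290 RPM (270 to 312, 739 reads) in tj white and 461 RPM (436 to 487, 1263 reads) in tj piwi, and 269 RPM (249 to 290) in nos white and 322 RPM (301 to 344) in nos piwi knockdown. The input ratio was 1.59 (1.45 to 1.74) under tj, the 5th highest of 114, and 1.20 (1.08 to 1.32) under nos, the 42nd highest of 115. Intervals of input ratios lay above 1 for 43% of elements under tj and 59.1% under nos. H3K9me3 reads of ZAM alone were 893 RPM in tj white and 900 RPM in tj piwi, a ratio of 1.01 (0.956 to 1.06), and 956 RPM in nos white and 943 RPM in nos piwi knockdown, a ratio of 0.987 (0.934 to 1.04). Whether the extra input reads of ZAM under tj came from more copies of the element in that line was not tested.

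Idefix had nearly equal input in all 4 conditions, at 1403, 1450, 1423 and 1463 RPM in tj white, tj piwi, nos white and nos piwi knockdown, with ratios of 1.03 (0.988 to 1.08) under tj and 1.03 (0.983 to 1.08) under nos. Its H3K9me3 reads were 2335 RPM in tj white and 2075 RPM in tj piwi, a ratio of 0.889 (0.859 to 0.920) whose interval lay below 1, as for 37.7% of elements, and 2242 RPM in nos white and 2246 RPM in nos piwi knockdown, a ratio of 1.002 (0.967 to 1.04). As its reads stand in the transposon table, the ratio of Idefix under tj was thus below 1 with or without input. Relative to the median element it was 0.946 (0.894 to 1.001) over input, an interval that reached 1, and 0.904 (0.874 to 0.936) without input. Sense RNA of Idefix was higher under both drivers.

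**Figure D4:**
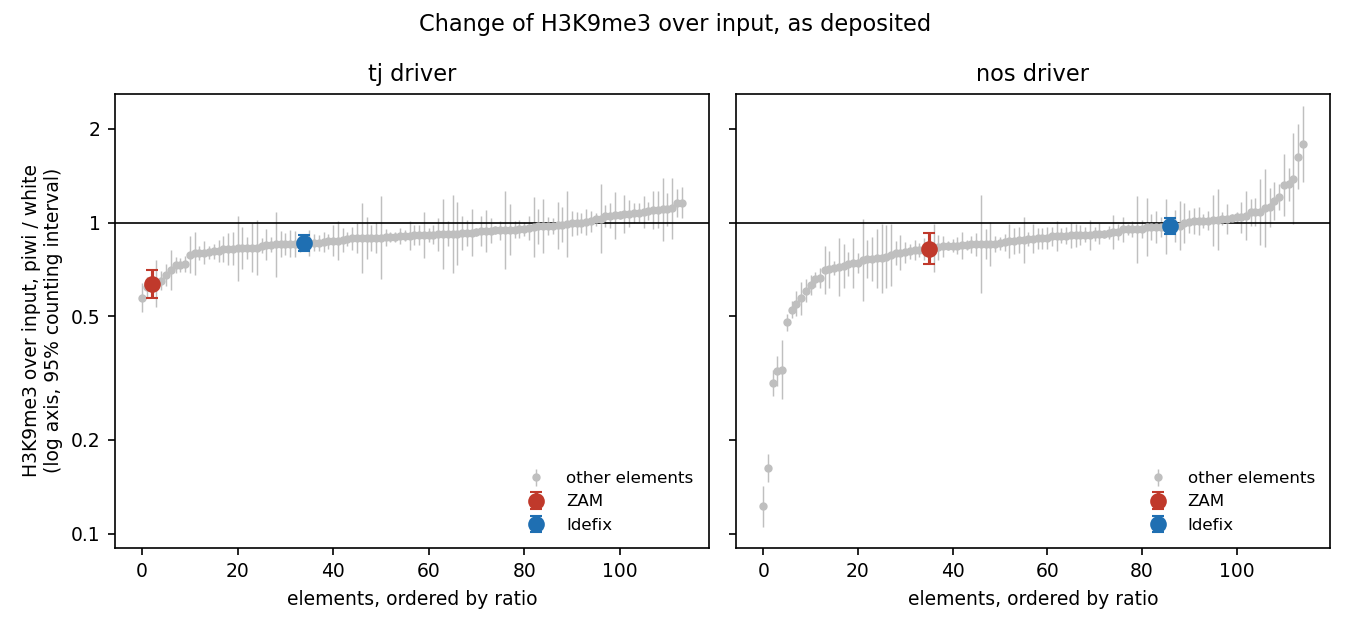
Piwi to white knockdown ratio of the H3K9me3 enrichment over input, on a log axis, for 114 elements under tj and 115 under nos, ordered by ratio, with 95% counting intervals. ZAM is the 3rd lowest under tj at 0.634 and the 36th lowest under nos at 0.825, and Idefix is at 0.860 and 0.974.

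Whether the ratio of Idefix lay below 1 rests on how the H3K9me3 reads were scaled. The authors' deposited tables of comparisons give folds of H3K9me3 reads, piwi over white knockdown and 1 library each, that exceed the ratios of RPM by a constant factor of 1.19 under tj and are 0.839 times those ratios under nos. How those folds were scaled is not stated. The authors' deposited table under tj gave a fold of 1.20 with an adjusted p of 0.590 for ZAM and of 1.06 with 0.712 for Idefix. Under nos the authors' deposited table gave 0.828 with 0.630 and 0.840 with 0.320, and 13.6% of its elements under tj and 16% under nos had an adjusted p under 0.05, in either direction. The same comparisons hold H3K9me3 over input at the values from RPM, 0.634 for ZAM and 0.860 for Idefix under tj, and 0.825 and 0.974 under nos. As an alternative made here, the H3K9me3 ratios alone were multiplied by 1.19 under tj and 0.839 under nos, with input left as deposited. H3K9me3 over input was then 0.755 (0.680 to 0.839) under tj and 0.692 (0.618 to 0.776) under nos for ZAM. For Idefix it was 1.02 (0.968 to 1.08) under tj and 0.817 (0.772 to 0.866) under nos. Intervals below 1 were then those of 8.77% of elements under tj, ZAM among them, and of 84.3% under nos, both elements among them. ZAM lay below 1 under both drivers with either scaling when input was used. Its place as the 3rd lowest under tj could not change, since 1 factor was applied to all elements of a driver. Without input ZAM was the 70th lowest of 114 under tj, at a ratio of 1.01 as deposited.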

How the data were processed

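Transposon families of 16 samples, 1 per assay, driver and knockdown, were grouped from their titles. Per the submitters' processing notes, Bowtie2 2.0.0, TopHat2 2.0.5, DESeq 1.10.1 and SICER 1.1 were used with build dm3, with no step stated. Values deposited for RNA-seq and for GRO-seq are RPM per strand, and the authors' ChIP-seq table gives RPM and the ratio of H3K9me3 to input. The authors' deposited comparison tables give a fold, its log2 and p-values, and their 6 columns of scaled reads without sample names were not used here. The counting of reads shared between related families is not stated.

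ChIP-seq RPM were whole reads within 1e-06 for totals that are multiples of 1000, of which the smallest was taken. Larger multiples of these totals would fit as well, so the read numbers are the smallest that fit. At best 50% of RNA-seq values under 1 RPM (within 0.02 reads) and 73.0% of GRO-seq values under 100 RPM (within 0.0051 RPM) were multiples of 1 step, so their depth is unknown.

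Changes were log2 ratios of RPM + 1, which understate the change of low elements, ranked among elements whose mean over a strand's 4 columns reached 1 RPM. H3K9me3 ratios were restricted to elements with 100 or more reads per library, with 95% intervals from the sum of reciprocal read numbers. Single libraries have exact Clopper-Pearson intervals. Reads carry no molecular identifiers, so both cover counting error only. Named elements were ZAM, Idefix, the highest and lowest of the env-carrying list, the ranges of the telomeric list and the 3 closest elements to each by correlation. The members and lists were chosen with earlier results of these data known, so no pattern here is independent support. Alternatives were other pseudocounts, filters, centring, no input and H3K9me3 reads rescaled by the factors of the authors' folds. The software was Python 3.11.15, numpy 2.4.6, scipy 1.17.1, pandas 2.3.3 and matplotlib 3.10.9.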

Additional observations from a re-analysis of the deposited data

Results flagged for a closer look

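The change of H3K9me3 over input differed between the drivers beyond counting error for both elements, as the reads stand in the transposon table. The ratio under tj was 0.768 times that under nos for ZAM (95% counting interval 0.658 to 0.897) and 0.882 times for Idefix (0.814 to 0.956). With the H3K9me3 reads rescaled by the factors of the authors' deposited folds, and input left as deposited, these values were 1.09 (0.934 to 1.27) and 1.25 (1.16 to 1.36). The difference was then within counting error for ZAM and turned for Idefix. The input change of ZAM was 1.33 times larger under tj than under nos (1.16 to 1.52), while that of Idefix was 1.01 times (0.944 to 1.07). How many other elements differed between the drivers beyond counting error was not counted, for H3K9me3 over input or for input. These differences are therefore not shown to be particular to the pair. Each interval compares single libraries, not conditions, and the spread between samples was not tested.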

How the results depend on the processing

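No paired analysis was possible because each group had 1 sample. The log2 ratios of sense RNA for ZAM under tj, Idefix under tj, ZAM under nos and Idefix under nos, in this order, were 5.71, 1.82, 0.35 and 2.24 in RNA-seq with a pseudocount of 5, and 6.37, 1.44, 0.43 and 1.77 in GRO-seq. With a pseudocount of 0.1 they were 5.78, 2.26, 0.36 and 2.72 in RNA-seq and 7.23, 1.63, 0.65 and 1.92 in GRO-seq. After centring on the median element they were 5.08, 1.47, -0.74 and 1.52 in RNA-seq and 6.64, 1.20, 0.070 and 1.37 in GRO-seq, so the direction for ZAM under nos turned in RNA-seq. After centring, the tj change minus the nos change of Idefix was -0.04 in RNA-seq and -0.17 in GRO-seq. Without input, the H3K9me3 ratio of ZAM was 1.01 under tj, with a counting interval of 0.956 to 1.06 that held 1, and 0.987 under nos. With the H3K9me3 reads rescaled by the factors of the authors' folds, the ratio over input was 0.755 under tj and 0.692 under nos for ZAM. For Idefix it was 1.02 under tj, with an interval of 0.968 to 1.08 that held 1, and 0.817 under nos. After centring it was 0.946 under tj and 1.098 under nos for Idefix and 0.930 under nos for ZAM. Centred input ratios were 0.955 under tj and 0.909 under nos for Idefix and 1.06 under nos for ZAM. Centring also took the elements at least 2-fold higher from 44 to 24 under tj and 59 to 38 under nos for sense RNA-seq, from 19 to 11 and 53 to 24 for antisense RNA-seq, from 26 to 16 and 42 to 27 for sense GRO-seq, and from 17 to 10 under tj for antisense GRO-seq. A pseudocount of 5 gave 11 and 29, and a mean of 10 RPM 12 and 30, for antisense RNA-seq. Intervals of H3K9me3 over input below 1 went from 54 to 20 under tj and 70 to 28 under nos after centring, and those above 1 from 5 to 22 and 7 to 26. With the rescaled H3K9me3 reads those below 1 were 10 and 97 and those above 1 were 46 and 2, and without input 43 and 44, and 22 and 35. The read minimums of 20 and 500 and the level filters alter counts of elements, not the values of the pair. Depth of RNA-seq and GRO-seq is unknown, which limits the low values most, such as 5.82 RPM of nascent ZAM.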
